A study of Mus musculus with 16 samples.

Results

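Retinal microglia of old mice were set against those of young adult mice. The 4 arrays titled as microglia at 24 months were compared with the 4 titled as microglia at 3 months, which made 8 of the 16 arrays of the series, and all 16755 features of the array table entered the comparison. No feature passed the threshold at 24 months. The best separated genes were nevertheless far apart on the 8 arrays. Cxcl13, a chemokine that attracts B cells, averaged 11.04 at 24 months against 7.07 at 3 months on the log2 scale, and Spa17, a protein of sperm and cilia, averaged 8.80 against 5.62. Tnf, the inflammatory cytokine, averaged 6.62 at 24 months against 8.17 at 3 months. The remaining arrays came from mice of 12 and 18 months and helped to estimate the spread.

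All mice were wild type C57BL/6, with no treatment named, and the ages were the only labelled difference. Flow cytometry had selected the cells for CD11b, an integrin that microglia share with monocytes, macrophages, neutrophils and natural killer cells. Less than 5 ng of total RNA per array was amplified before hybridisation to an exon array. The 4 arrays of each age are labelled as biological replicates without saying whether each came from 1 animal or from a pool, so the p-values measure only the spread between these samples.

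Microglia are the resident macrophages of the retina. In the healthy tissue they lie in the plexiform layers, survey their surroundings with fine processes, and clear debris and synapses through complement and scavenger receptors. They depend on signalling through the CSF1 receptor, carry the fractalkine and P2Y12 receptors in the resting state, and respond to injury with cytokines, chemokines and antigen presentation. In aged retinas microglia are known to have shorter processes and to move into the outer layers near photoreceptors.

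The label was checked against 7 genes of microglia. Cx3cr1, the fractalkine receptor gene, stood at 12.73, 12.05, 12.71 and 12.72 on 3-month replicates 1 to 4 and at 9.91, 12.65, 12.76 and 12.57 on 24-month replicates 1 to 4. P2ry12, the nucleotide receptor gene of resting microglia, stood at 12.21, 11.20, 11.94 and 12.12 at 3 months and at 8.69, 11.78, 11.97 and 11.71 at 24 months. Itgam, which encodes the CD11b of the sort, stood at 10.21, 8.53, 10.36 and 10.80 and at 7.19, 10.03, 10.12 and 10.27. In all 3 genes 24-month replicate 1 lay far below the other 3 arrays of its age, while these other 3 overlapped the 3-month arrays. Mean differences (24 minus 3 months) were −0.58 (SE 0.608) for Cx3cr1, −0.83 (SE 0.657) for P2ry12 and −0.57 (SE 0.749) for Itgam. For Csf1r, the receptor gene on which microglia depend, the difference was −0.61 (SE 0.618), for Tmem119 −0.72 (SE 0.732), for Aif1, which encodes Iba1, −0.42 (SE 0.496), and for the leukocyte gene Ptprc −0.51 (SE 0.628). Without 24-month replicate 1 these 7 differences were 0.11, −0.05, 0.16, 0.07, 0.02, 0.08 and 0.07 in the same order.

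Genes of retinal neurons were measured as well, and they set other arrays apart. The rod transducin gene Gnat1 stood at 12.53, 13.21, 10.10 and 8.90 on the 3-month arrays and at 13.53, 13.20, 12.83 and 13.17 on the 24-month arrays. A rod score, the mean deviation of 16 rod genes from their means over all 16 arrays, reached only −2.07 and −2.51 on the 3-month replicates 3 and 4, while the other 14 arrays lay between −0.52 and 1.24. The same score over 26 homeostatic microglia genes was −1.94 on 24-month replicate 1 and −0.12 to 0.67 on the other 7 arrays of these ages. In a principal component analysis the same arrays lay far out, with scores of −53.1 and −52.6 for 3-month replicates 3 and 4 and of 64.4 for 24-month replicate 1 on the first component (42.8% of the variance). They were not alone there. On that component 18-month replicates 1 and 2 lay at 70.5 and 66.5, and their microglia scores were −1.51 and −1.205. On the second component (11.6%) 3-month replicate 2 lay at −66.9. Each array also carries a running number whose meaning the labels do not give. Both ages had 2 arrays among the numbers 1 to 8 (replicates 1 and 2) and 2 among 9 to 16 (replicates 3 and 4), and values within these number groups are given beside the results they touch. In sorted bulk samples a lower share of a cell type and less RNA of that gene per cell cannot be told apart.

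**Figure D1:**
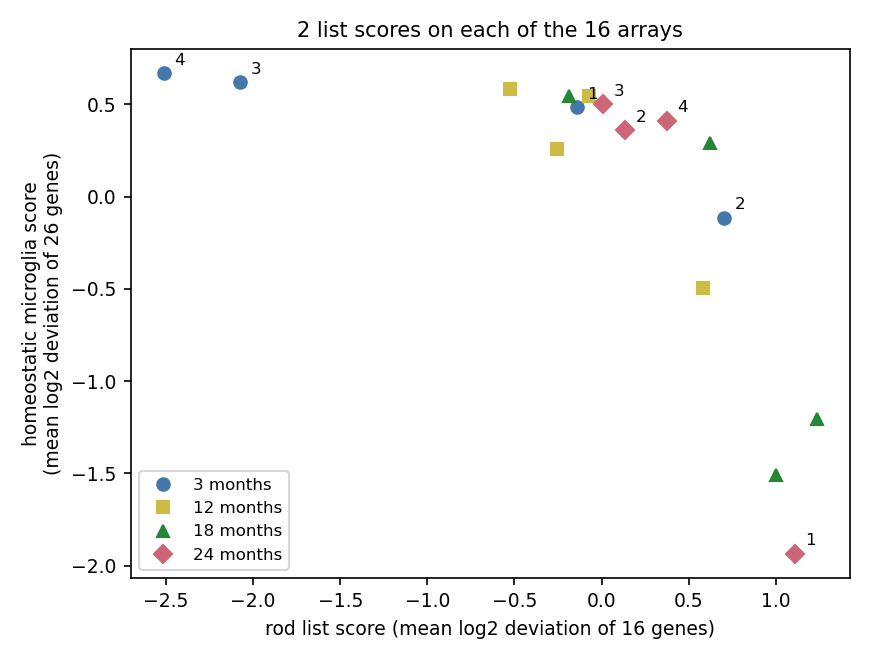
Each point is 1 of the 16 arrays, placed by its rod score (horizontal axis, log2) and its homeostatic microglia score (vertical axis, log2), with replicate numbers beside the 3-month and 24-month arrays. 3-month replicates 3 and 4 lie at rod scores of −2.07 and −2.51, and 24-month replicate 1 lies at a microglia score of −1.94.

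In limma 0 of 16755 features passed an adjusted p of 0.05 (0%), and the smallest adjusted p was 0.108, shared by 752 features. An unadjusted p under 0.05 was reached by 4626 features (27.6%), of which 626 (3.74%) were higher and 4000 (23.9%) lower at 24 months. The 4 arrays of 24 months lay entirely above those of 3 months for 238 features (1.42%) and entirely below for 3138 (18.7%), which made 3376 features (20.1%) with no overlap. The 2 directions differed in size and in level. Among the non-overlapping features the median difference was 0.85 for the higher ones, and 93 of them exceeded 1, while it was −0.35 for the lower ones, of which 21 exceeded 1 in size. Of the lower ones 1664 were among the 5585 features with the lowest mean level, against 9 of the higher ones. The array medians were 7.04 to 7.13 at 3 months and 6.92 to 6.98 at 24 months, without overlap, and the median feature differed by −0.17 between the ages, so a difference relative to that median is given beside many of the lower values. Lower features made up 86.5% of those with an unadjusted p under 0.05, against 60% after median centring of the arrays, 73.1% after quantile normalization and 74% without those 5585 dim features.

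**Figure D2:**
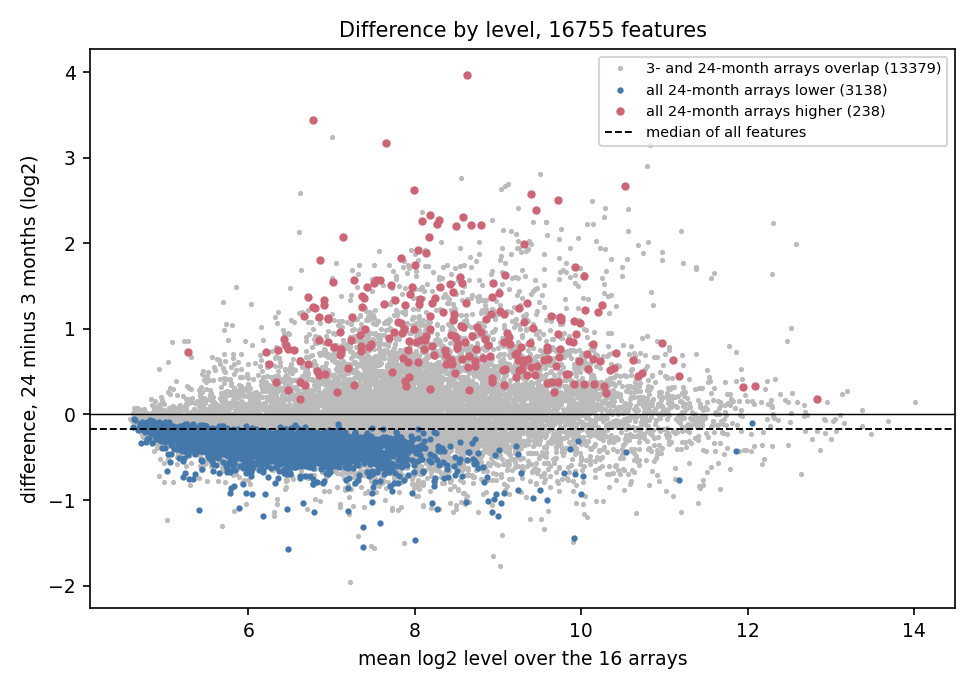
Each point is 1 of 16755 features, with its mean log2 level over the 16 arrays on the horizontal axis and its log2 difference (24 minus 3 months) on the vertical axis. The 238 features whose 24-month arrays all lay higher (red) spread over the middle and upper levels, while the 3138 whose arrays all lay lower (blue) crowd at low levels and small differences, and the dashed line marks the median of −0.17.

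Promoters are shown for 5 of the genes with the 2 smallest p in the chemokine, interferon, Toll-like receptor and cytokine lists described further on. The others, Cxcr3, Nod2 and Il12a, averaged lower at 24 months and are not shown. Cxcl13, Oasl2, Gbp2 and Myd88 lay higher and Tnf lay lower on every 24-month array. The sequences are from RefSeq (GRCm38.p6), each a window of 300 bases over the gene's start, read 5′ to 3′ on the gene's strand. Capitals mark the match to an NF-kB-type motif (GGGA, any 4 letters, CC) in Cxcl13 (chr5:95956689-95956988, plus strand) and Tnf (chr17:35201958-35202257, minus strand), and to an interferon-type motif (GAAA, any 2 letters, GAAA) in Gbp2 (chr3:142620413-142620712, plus strand) and Myd88 (chr9:119339969-119340268, minus strand), with both strands searched. Oasl2 (chr5:114896684-114896983, plus strand) held no match to the interferon-type motif in this window.
Cxcl13: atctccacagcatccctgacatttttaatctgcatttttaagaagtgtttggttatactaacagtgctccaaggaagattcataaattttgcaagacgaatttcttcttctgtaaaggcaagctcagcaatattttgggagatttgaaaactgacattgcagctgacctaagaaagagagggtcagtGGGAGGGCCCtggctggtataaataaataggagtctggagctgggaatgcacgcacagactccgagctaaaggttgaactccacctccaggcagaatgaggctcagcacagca
Tnf: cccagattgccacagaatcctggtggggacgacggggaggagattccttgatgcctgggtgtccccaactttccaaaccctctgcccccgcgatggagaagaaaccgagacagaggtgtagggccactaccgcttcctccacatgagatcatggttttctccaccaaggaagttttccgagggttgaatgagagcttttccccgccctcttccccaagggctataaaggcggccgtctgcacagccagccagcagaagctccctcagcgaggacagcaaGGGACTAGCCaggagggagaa
Oasl2: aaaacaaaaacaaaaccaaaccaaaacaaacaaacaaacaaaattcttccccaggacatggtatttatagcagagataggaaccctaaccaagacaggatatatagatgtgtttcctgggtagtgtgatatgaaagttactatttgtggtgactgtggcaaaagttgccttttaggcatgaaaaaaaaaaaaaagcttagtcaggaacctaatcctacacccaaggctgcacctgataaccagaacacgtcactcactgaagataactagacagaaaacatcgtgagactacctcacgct
Gbp2: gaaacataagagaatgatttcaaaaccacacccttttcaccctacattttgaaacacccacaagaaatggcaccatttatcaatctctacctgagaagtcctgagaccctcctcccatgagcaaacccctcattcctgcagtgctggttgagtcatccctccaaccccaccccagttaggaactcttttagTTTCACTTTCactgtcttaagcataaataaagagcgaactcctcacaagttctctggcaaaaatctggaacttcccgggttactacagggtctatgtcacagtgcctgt
Myd88: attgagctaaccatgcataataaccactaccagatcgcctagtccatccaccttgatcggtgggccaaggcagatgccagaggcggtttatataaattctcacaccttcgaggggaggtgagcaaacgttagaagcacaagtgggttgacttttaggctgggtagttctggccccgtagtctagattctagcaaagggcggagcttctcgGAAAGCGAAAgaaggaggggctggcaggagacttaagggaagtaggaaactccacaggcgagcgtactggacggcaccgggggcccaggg
The match in Gbp2 lies on the opposite strand and that in Myd88 on the gene's own. Across the genes with 1 symbol, 11894 of 14860 had a promoter in the table. The interferon-type motif was held by 3.79% of these, by 3.53% of the 170 promoters of genes that lay higher without overlap and by 3.94% of the 2185 of genes that lay lower. The NF-kB-type motif was held by 27.7%, 31.2% and 27.6%, the photoreceptor-type motif TAATCC by 7.27%, 4.71% and 6.04%, and the PU.1-type motif GAGGAAG by 15.3%, 9.41% and 15.1%. A match describes these letters in this window and no binding.

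Among single genes the 12 with the smallest p in each direction were taken. None passed. Cxcl13 (feature 6932571) had the largest difference of all features. It stood at 7.24, 6.56, 7.27 and 7.21 on the 3-month arrays and at 9.55, 10.61, 11.82 and 12.19 on the 24-month arrays. The lowest 24-month array was 2.28 above the highest 3-month array, and 24-month replicates 3 and 4 were the highest of the 16 arrays. The mean difference was 3.97 (SE 0.808, adjusted p = 0.108 in limma), with 3.18 within the array numbers 1 to 8 and 4.76 within 9 to 16. It ran from 3.18 to 4.83 over 28 alternatives, with adjusted p from 0.0313 to 0.345, and passed in 2 of them.

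Spa17 (feature 6994705) stood at 5.75, 5.66, 5.60 and 5.49 at 3 months and at 10.13, 7.93, 9.32 and 7.82 at 24 months. Its 3-month levels were below the average of those 5585 dim features (5.79 to 5.91 on the 3-month arrays), so the difference of 3.18 (SE 0.499, adjusted p = 0.108 in limma) gives no ratio of transcript amounts. Usp6nl, a GTPase-activating protein for Rab5 in endosome traffic, stood at 6.79, 6.86, 6.98 and 7.14 at 3 months and at 10.00, 8.81, 8.20 and 9.87 at 24 months, a difference of 2.28 (SE 0.452). The 2 groups of arrays were more than 1 apart in both genes. D16Ertd472e, given here by name only, stood at 8.10, 7.36, 6.39 and 6.61 and at 9.86, 10.03, 9.00 and 8.83, a difference of 2.31 (SE 0.473).

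The other 8 higher genes differed by 0.79 to 1.43. Dld, the dihydrolipoamide dehydrogenase of the mitochondrial 2-oxoacid dehydrogenase complexes, stood at 8.90, 9.28, 9.68 and 9.71 at 3 months and at 10.97, 10.63, 10.96 and 10.13 at 24 months (difference 1.28, SE 0.236). Armcx3, a protein of the outer mitochondrial membrane, differed by 1.22 (SE 0.228), Hsd17b12, a reductase of fatty acid elongation, by 1.43 (SE 0.311), and Xdh, the xanthine dehydrogenase of purine breakdown, by 0.79 (SE 0.162). Gla, the lysosomal alpha-galactosidase, stood at 5.59, 5.92, 6.03 and 6.84 and at 7.56, 7.43, 7.01 and 7.37 (difference 1.25, SE 0.271). Arhgef12, an exchange factor for RhoA, differed by 0.97 (SE 0.212), Arl14ep by 1.21 (SE 0.264), and Ccna2, the cyclin of S phase and mitotic entry, by 1.26 (SE 0.280). All 8 had an adjusted p of 0.108 in limma and no overlap between the ages. Ccna2 was the most uneven of them, with a difference of 0.59 within the array numbers 1 to 8 and 1.92 within 9 to 16.

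The differences of the 12 lower genes ran from −1.19 to −0.43. G3bp1, a core protein of stress granules, stood at 11.54, 11.64, 11.77 and 11.78 at 3 months and at 10.87, 10.93, 11.07 and 10.79 at 24 months. Its difference was −0.77 (SE 0.145, adjusted p = 0.108 in limma), or −0.60 relative to the median of all features. Bdkrb1, the inducible bradykinin B1 receptor gene, stood at 6.82, 7.04, 6.91 and 7.02 and at 5.88, 6.30, 6.24 and 6.17 (difference −0.80, SE 0.151, −0.63 relative to the median of all features). Neu2, a cytosolic sialidase, had the smallest p of this direction, with a difference of −0.60 (SE 0.0932, −0.43 relative to the median of all features). Every 24-month array lay below every 3-month array in these 3 genes, as in the other 9.

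The differences of these 9 were −0.72 for Mc1r, a melanocortin receptor gene, −0.47 for Inpp5e, a phosphoinositide phosphatase of primary cilia, −0.45 for Thap11, a zinc finger transcription factor, and −0.63 for Ankrd34c. Tas2r106, a bitter taste receptor gene, stood at −1.11 (SE 0.204) and Olfr250, an olfactory receptor gene, at −1.19 (SE 0.219). All 24-month levels of Tas2r106 (4.75 to 5.10) lay below the average of the 5585 dim features (5.61 to 5.73). On each 24-month array the same held for Ankrd34c (5.40 to 5.64), 9530002B09Rik (5.06 to 5.21) and 4930474N05Rik (5.282 to 5.455). The differences of these genes give no ratio of transcript amounts either. The 3 genes without an established name, 9530002B09Rik, 4921536K21Rik and 4930474N05Rik, stood at −0.43, −0.43 and −0.59. Relative to the median feature these 9 differences ran from −1.02 for Olfr250 to −0.26 for 9530002B09Rik and 4921536K21Rik. Tas2r106 passed in limma without 3-month replicate 1 (−1.34, adjusted p = 0.0211, range 0.0211 to 0.355 over 27 alternatives).

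**Figure D3:**
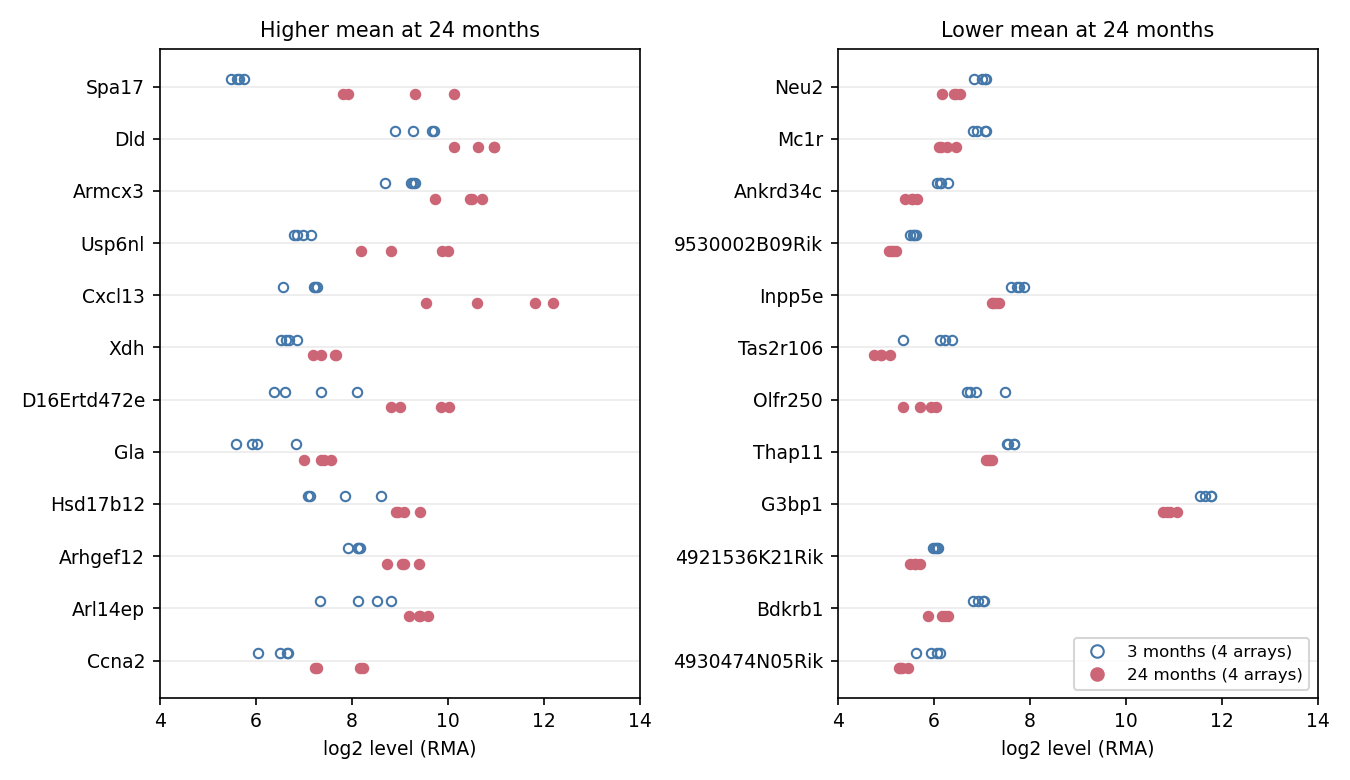
Log2 levels of the 12 genes with the smallest p in each direction, with 1 open blue point per 3-month array and 1 filled red point per 24-month array. The ages do not overlap in any of these 24 genes, and the separation of groups is widest in Cxcl13 and Spa17 at gaps of 2.28 and 2.07.

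Gene lists were used to describe functions, with 1 feature per gene. In each of them 0 members passed in limma, as for all features, and their counts are to be read against 3.74% of all features higher and 23.9% lower at an unadjusted p under 0.05, and against a median of −0.17 for all features. Of 28 homeostatic microglia genes listed 26 were measured, and all 26 averaged lower at 24 months with 0 at an unadjusted p under 0.05. Their median difference was −0.60, with −1.03 within the array numbers 1 to 8 and −0.12 within 9 to 16. Fcrls, a microglial Fc receptor-like gene, differed by −1.07 (SE 0.647), and Trem2, the lipid-sensing receptor gene, by −0.88 (SE 0.568) with all arrays and −0.35 without 24-month replicate 1. The list's median was 0.25 when 24-month replicate 1 and 3-month replicates 3 and 4 were left out together. Of 20 disease-associated microglia genes, those that mark microglia around damage, 13 averaged lower, with a median of −0.03 and 0 at an unadjusted p under 0.05. The pyrophosphate transporter gene Ank (−0.26, SE 0.132) and the growth factor gene Csf1 (−0.21, SE 0.121) had the smallest p among them.

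Complement is a cascade of plasma and tissue proteins that tag targets for uptake, with C1q as the starter of the classical pathway and factor B as the amplifier of the alternative pathway. Cfb, the factor B gene, stood at 6.59, 6.66, 6.68 and 6.72 on the 3-month arrays and at 7.44, 7.15, 6.87 and 8.57 on the 24-month arrays. All 24-month arrays were higher, and replicate 4 was more than 1 above the next. The difference was 0.84 (SE 0.264, adjusted p = 0.110 in limma), with 0.67 within the array numbers 1 to 8 and 1.02 within 9 to 16, and it ran from 0.49 without the highest array to 1.06 over 28 alternatives. Among the regulators Clu, which encodes clusterin and is also a gene of Müller glia, differed by 1.99 (SE 0.734) but by 0.59 without 3-month replicates 3 and 4. Vtn, which encodes vitronectin, differed by 1.23 (SE 0.714) and by −0.27 in that case, and Serping1, the C1 inhibitor gene, by 0.56 (SE 0.594) and by −0.05 without 24-month replicate 1. The terminal component gene C6 differed by −0.29 (SE 0.0963, −0.12 relative to the median of all features).

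The C1q genes, named here after their values were seen, encode the 3 chains of C1q. C1qa stood at 10.28, 9.75, 10.40 and 10.92 at 3 months and at 7.70, 10.69, 11.06 and 11.06 at 24 months. Without the single low array, 24-month replicate 1, the difference of C1qa was 0.60, against −0.21 (SE 0.801) with it. C1qb and C1qc differed by −0.39 (SE 0.380) and −0.41 (SE 0.337), each with its lowest level on the same array, and by −0.04 and −0.09 without it. Over the 22 complement genes measured of 31 listed, 2 were higher and 4 lower at an unadjusted p under 0.05, and the median was −0.15.

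Inflammatory signalling genes went both ways. Tnf, the tumour necrosis factor gene, stood at 8.77, 7.43, 8.03 and 8.47 on the 3-month arrays and at 6.26, 6.83, 6.78 and 6.62 on the 24-month arrays. The 24-month arrays were all lower and close together. The difference was −1.55 (SE 0.465, −1.38 relative to the median of all features, adjusted p = 0.108 in limma) and was −1.55 within either number group. Il12a, a subunit gene of interleukin 12, differed by −0.43 (SE 0.132, −0.26 relative to the median of all features). Of 37 cytokine and receptor genes 2 were higher and 4 lower at an unadjusted p under 0.05 and 6 lay lower without overlap (16.2%, against 18.7% of all features), with a median of −0.21. In the NF-kB pathway, which carries cytokine and Toll-like receptor signals to the nucleus, 0 of 26 genes were higher and 5 lower, with a median of −0.32. Its leading members were Tnip2, an inhibitor gene of the pathway (−0.67, SE 0.222), and the adaptor gene Traf1 (−0.29, SE 0.102). Relative to the median of all features these were −0.49 and −0.12. Traf1 lay below the average of the dim features on every 3-month and 24-month array, so its difference gives no ratio of transcript amounts.

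Myd88, the adaptor gene of most Toll-like receptors, lay on the higher side. It stood at 6.98, 6.42, 7.46 and 7.21 at 3 months and at 7.54, 8.82, 8.54 and 9.13 at 24 months, with 24-month replicate 1 only 0.07 above the highest 3-month array. The difference was 1.49 (SE 0.363, adjusted p = 0.108 in limma), with 1.48 and 1.50 within the number groups, and it ran from 1.28 to 2.13 over 28 alternatives with 2 passing. Nod2, a cytosolic sensor gene of bacterial wall fragments, differed by −0.29 (SE 0.0939). Of 27 Toll-like receptor and inflammasome genes 1 was higher and 2 lower at an unadjusted p under 0.05, with a median of −0.26 (0.0096 without 24-month replicate 1). Among 30 chemokine and receptor genes 2 were higher and 5 lower, with a median of −0.18 (0.16 without that array), and Cxcl13 was the 1 gene (3.33%, against 1.42% of all features) with every 24-month array higher. Cxcr3, the receptor gene for interferon-induced chemokines, differed by −0.60 (SE 0.216, −0.43 relative to the median of all features).

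Interferons induce a large set of antiviral genes. Oasl2, a member of the oligoadenylate synthetase family, stood at 8.15, 7.80, 8.18 and 7.81 at 3 months and at 8.46, 8.83, 8.81 and 9.51 at 24 months. Gbp2, a guanylate-binding GTPase induced by interferon gamma, stood at 5.94, 6.48, 7.39 and 7.08 and at 8.36, 7.50, 7.53 and 9.64. Both had all 24-month arrays above all 3-month arrays, with replicate 4 the highest. Differences were 0.92 (SE 0.206) for Oasl2 and 1.54 (SE 0.445) for Gbp2, each with an adjusted p of 0.108 in limma. Without 24-month replicate 4 they were 0.72 and 1.08. Of 28 interferon response genes 18 averaged higher, 3 were higher and 1 lower at an unadjusted p under 0.05, and the median was 0.18. On 24-month replicate 4 the list's median deviation was 0.95, against 0.30 or less on the other 15 arrays, and without that array the median difference was −0.13.

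Class I antigen presentation genes lay near all features, and class II genes averaged lower with all arrays. Tapbp and Tap2, which load peptides on MHC class I, differed by −0.48 (SE 0.183) and −0.41 (SE 0.158), or −0.31 and −0.24 relative to the median of all features. Of 10 class I genes 0 were higher and 2 lower (20%, against 23.9% of all features) at an unadjusted p under 0.05, with a median of −0.13 (0.08 without 24-month replicate 1). All 10 class II genes averaged lower, with a median of −0.40 and 1 at an unadjusted p under 0.05, the costimulatory receptor gene Cd40 (−0.44, SE 0.175). The class II median deviation was −1.38 on 24-month replicate 1 and −0.45 on 3-month replicate 2, and it ran from 0.23 to 0.89 on the other 6 arrays of these ages. Without 24-month replicate 1 the class II median difference was 0.02, and with the rod score as a covariate it was 0.34.

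Uptake and degradation genes were led by a scavenger receptor. Cd36, which binds oxidised lipids and debris, stood at 8.20, 5.50, 5.92 and 8.11 on the 3-month arrays and at 8.81, 8.88, 8.47 and 9.25 on the 24-month arrays. The 3-month arrays split into a high and a low pair, and all 24-month arrays lay above both. In the low pair, replicate 2 lay below the average of the dim features (5.91 on that array). The Cd36 difference therefore gives no ratio of transcript amounts. The difference was 1.92 (SE 0.600, adjusted p = 0.110 in limma), with 1.99 and 1.85 within the number groups. Marco, another scavenger receptor gene, differed by −0.37 (SE 0.139, −0.20 relative to the median of all features). Of 30 phagocytosis and Fc receptor genes 1 was higher and 1 lower at an unadjusted p under 0.05, with a median of −0.24 (0.12 without 24-month replicate 1). Among 31 lysosome genes 1 was higher, Gla, and 4 lower, with the sialidase gene Neu1 at −0.62 (SE 0.230), and the median was −0.21 (0.11 without that array). The autophagy list had 0 of 21 at an unadjusted p under 0.05 and a median of 0.03, with Wipi2 at 0.51 (SE 0.240) and Becn1 at −0.50 (SE 0.243), both genes of phagophore formation.

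Genes of lipids, iron and redox defence gave mixed directions. Cyp27a1, a mitochondrial sterol hydroxylase, and Dhcr7, the last enzyme of cholesterol synthesis, differed by −0.75 (SE 0.195) and −0.68 (SE 0.198), and both had no overlap between the ages. Of 25 lipid and cholesterol genes 3 were higher and 5 lower at an unadjusted p under 0.05, with a median of −0.10. Iron handling had 1 of 16 higher and 1 lower, with a median of 0.04. Its members were Aco1, an iron regulatory protein gene (0.47, SE 0.202), and Hjv, the hemojuvelin gene (−0.41, SE 0.137). Of 29 antioxidant genes 6 (20.7%, against 3.74% of all features) were higher and 3 lower at an unadjusted p under 0.05, with a median of 0.06. Within the array numbers 1 to 8 the median was 0.325, and within 9 to 16 it was −0.17. The thioredoxin gene Txn1 stood at 5.98, 6.48, 6.75 and 6.41 at 3 months and at 5.43, 5.55, 5.50 and 5.78 at 24 months (difference −0.84, SE 0.161). On 24-month replicates 1 to 3 it lay below the average of the dim features (5.606 to 5.635), so its difference gives no ratio of transcript amounts. The peroxiredoxin gene Prdx1 differed by 0.76 (SE 0.268).

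In energy metabolism few genes stood out. Of 26 oxidative phosphorylation genes 0 reached an unadjusted p under 0.05 and the median was 0.12, with Sdha of complex II at 0.27 (SE 0.140) and Uqcrfs1 of complex III at −0.32 (SE 0.164). Of 18 glycolysis genes 1 was higher and 1 lower, with a median of 0.14. These were Aldoc, an aldolase gene of brain and retina (1.60, SE 0.690, and 0.62 without 24-month replicate 1 and 3-month replicates 3 and 4), and the lactate transporter gene Slc16a3 (−0.44, SE 0.176). The circadian clock list had a median of 0.19 with 1 of 16 higher, the clock output gene Hlf (1.62, SE 0.572), and 1 lower, Npas2 (−0.28, SE 0.104). Without 3-month replicates 3 and 4 Hlf differed by 0.83 and the list's median was −0.0019. With 24-month replicate 1 left out as well these were 0.50 and −0.10.

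Growth factor genes were mostly lower, near the share of all features. Of 25 neurotrophic genes 1 was higher and 6 lower at an unadjusted p under 0.05 (24%, against 23.9% of all features), with a median of −0.18. Ptn, the pleiotrophin gene, differed by 2.11 (SE 0.652) with all arrays and 0.83 without 3-month replicates 3 and 4, and Nrtn, the neurturin gene, by −0.51 (SE 0.149). Of 34 angiogenic genes 3 were higher and 7 lower, with a median of −0.08. The endothelial receptor gene Tie1 (−0.42, SE 0.120) and the Notch ligand gene Dll4 (−0.37, SE 0.116) had the smallest p. Small mediators of inflammation and pain formed the function list with the most lower members. Of 26 bradykinin, histamine and prostaglandin genes 1 was higher and 9 lower (34.6%, against 23.9% of all features), with a median of −0.33. The lower ones were led by Bdkrb1 and by Hrh4, a histamine receptor gene (−0.38, SE 0.103, −0.21 relative to the median of all features). Of the 26 genes 11 were among the dim features, Bdkrb1 and Hrh4 included. Hrh4 lay below the average of the dim features on every 3-month and 24-month array. Its difference therefore gives no ratio of transcript amounts. Of 18 purinergic genes 1 was higher and 3 lower, with a median of −0.27, among them the ATP-gated channel gene P2rx3 (−0.39, SE 0.0983) and the ADP receptor gene P2ry1 (−0.36, SE 0.113).

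Genes of growth control and protein upkeep followed. In the cell cycle and senescence list 1 of 25 was higher, Ccna2, and 3 lower, with a median of −0.15 and Cdkn2b, an inhibitor gene of CDK4, at −0.28 (SE 0.110). In the telomere and DNA repair list 0 of 26 were higher and 5 lower, with a median of −0.14. Xrcc1, a scaffold gene of single-strand break repair, differed by −0.35 (SE 0.0971), and the deacylase gene Sirt6 by −0.33 (SE 0.114). Among 22 heat shock genes and co-chaperones 2 were higher and 2 lower, with a median of −0.03. Bag2, a co-chaperone gene of Hsp70, stood at 7.09, 7.19, 6.53 and 6.66 at 3 months and at 6.31, 6.29, 6.19 and 6.33 at 24 months (difference −0.59, SE 0.134). Dnajb4, an Hsp40 gene, stood at 9.29, 7.24, 8.54 and 9.21 and at 11.11, 10.39, 10.23 and 9.45 (difference 1.73, SE 0.433). Both genes had no overlap between the ages and an adjusted p of 0.108 in limma.

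The unfolded protein response had 1 of 23 higher and 1 lower, with a median of −0.06, namely Sel1l of the degradation machinery of the endoplasmic reticulum (0.96, SE 0.346) and the glutathione-degrading enzyme gene Chac1 (−0.52, SE 0.175). Of 22 proteasome genes 0 were higher and 1 lower, with a median of −0.02, and the ATPase subunit genes Psmc4 and Psmc2 differed by −0.78 (SE 0.221) and −0.27 (SE 0.139). Only 7 of 25 ribosomal protein genes listed were measured, with 0 at an unadjusted p under 0.05, a median of 0.11 and Rplp0 at 1.75 (SE 0.859). Of 24 motility and cytoskeleton genes 0 were higher and 1 lower, with a median of −0.30, and the integrin genes Itgal and Itgb7 differed by −0.37 (SE 0.131) and −0.35 (SE 0.163).

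**Figure D4:**
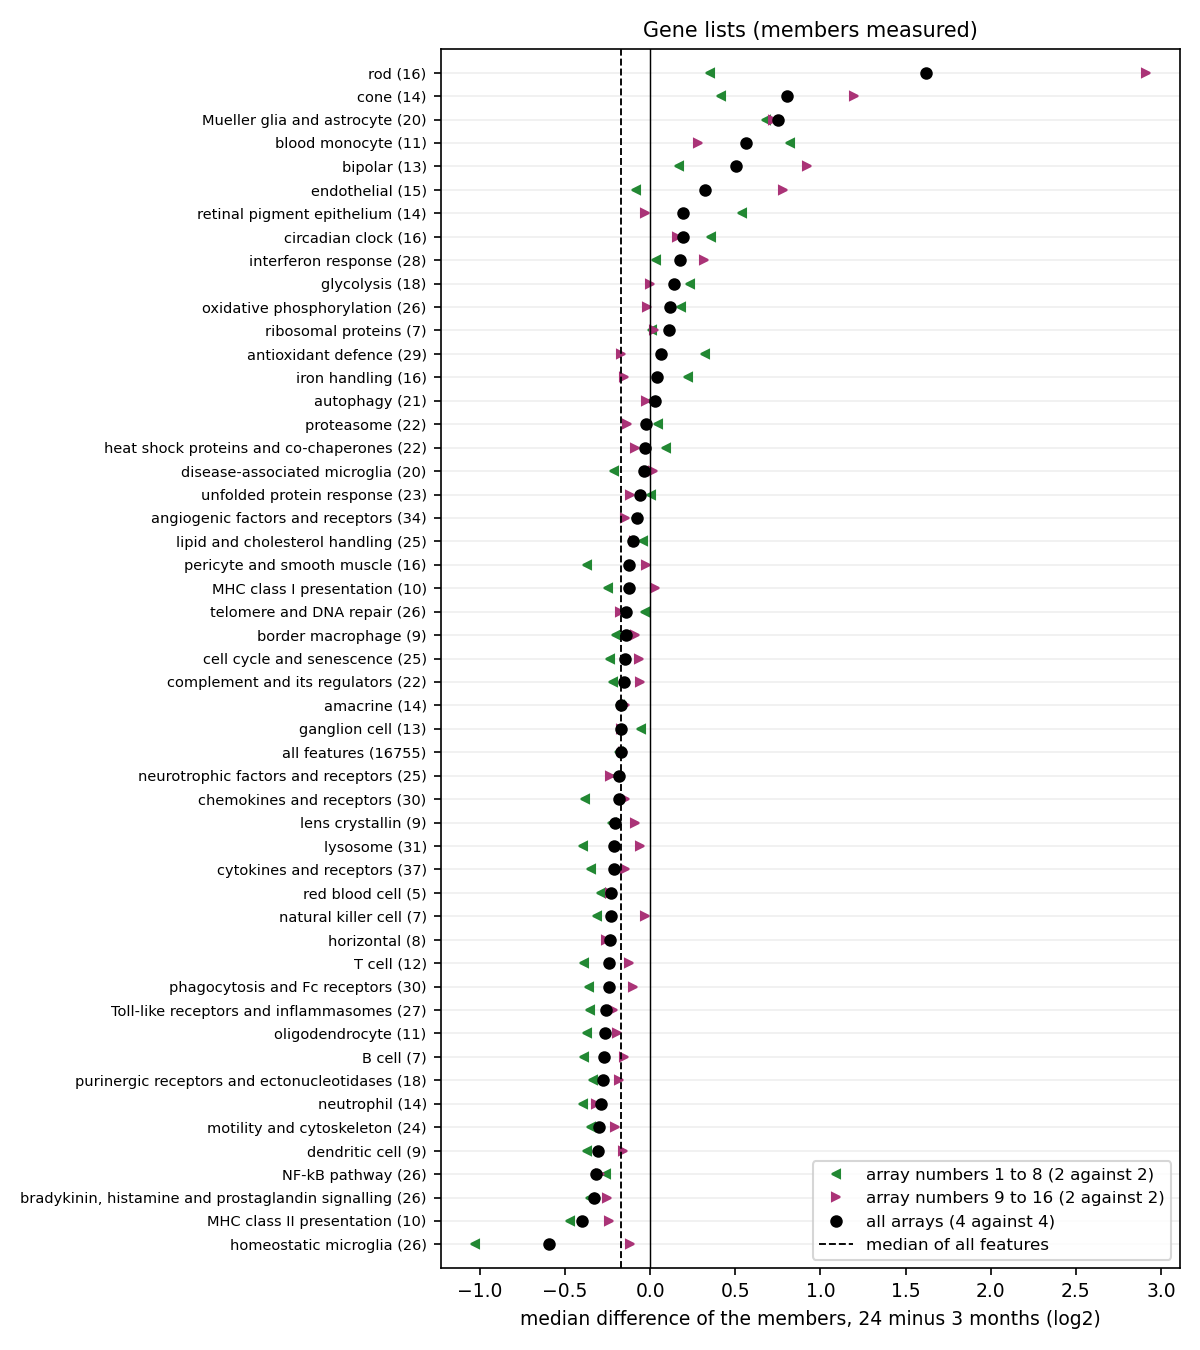
Median log2 difference (24 minus 3 months) over the measured members of 30 lists of functions and 20 of cell types, with the number measured in brackets, for all arrays (black) and within the 2 groups of array numbers (triangles, 2 against 2 arrays). The rod list lies highest at 1.62 with 0.35 and 2.91 in the number groups, the homeostatic microglia list lies lowest at −0.60, and the dashed line marks all features at −0.17.

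The rod, cone and Müller glia lists had the largest median differences of all lists. For rods 16 of 20 genes were measured, 9 of them (56.2%, against 3.74% of all features) were higher at an unadjusted p under 0.05, and the median was 1.62. Within the array numbers 1 to 8 it was 0.35 and within 9 to 16, where 3-month replicates 3 and 4 lie, it was 2.91. The rod median deviation ran from −2.90 to 0.64 on the 3-month arrays and from 0.11 to 1.15 on the 24-month arrays. Grk1, the rhodopsin kinase gene, stood at 9.08, 9.38, 7.06 and 6.44 at 3 months and at 10.62, 9.55, 9.38 and 10.37 at 24 months (difference 1.99, SE 0.662, and 0.75 without 3-month replicates 3 and 4). Gnat1 and the transducin beta gene Gnb1 differed by 1.99 (SE 0.706) and 1.00 (SE 0.349), and by 0.31 and 0.39 without these 2 arrays. The rod list's median was −0.21 when 24-month replicate 1 was left out as well.

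Of 14 cone genes 2 were higher, the opsin gene Opn1mw (1.39, SE 0.512) and Guca1a, a guanylate cyclase activator gene (1.65, SE 0.680), and the cone median was 0.81. Without 3-month replicates 3 and 4 Guca1a differed by 0.07 and the cone median was 0.04. Of 13 bipolar genes 1 was higher, the homeobox gene Otx2 (2.70, SE 0.714), and the median was 0.50, against −0.09 without these 2 arrays. Without 24-month replicate 1 the cone and bipolar medians were 0.35 and 0.11, and without all 3 arrays −0.20 and −0.27. The other neurons lay near all features, with medians of −0.17 over 14 amacrine, −0.17 over 13 ganglion cell and −0.24 over 8 horizontal cell genes, and 2, 0 and 0 higher and 5, 2 and 3 lower at an unadjusted p under 0.05. How far rod, cone and bipolar transcripts in the sorted samples enter the differences of other genes was not tested.

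Müller glia are the radial glia of the retina, which take up glutamate and buffer ions. Their list, joined with astrocyte genes, had 8 of 20 higher (40%, against 3.74% of all features) and 1 lower at an unadjusted p under 0.05, and 2 of 20 lay higher without overlap (10%, against 1.42% of all features). The median was 0.75, with 0.68 and 0.72 within the number groups, and it lay above 0 in 25 of 25 alternatives (0.16 to 0.95). Some of these alternatives could not change it. The list's median fell to 0.32 without 3-month replicates 3 and 4. It was 0.20 with 24-month replicate 1 left out as well, and 0.16 with the rod score as a covariate. Slc1a3, the glutamate transporter gene GLAST, stood at 8.36, 8.77, 6.78 and 8.06 at 3 months and at 10.18, 9.58, 9.29 and 9.44 at 24 months. All 24-month arrays were higher by at least 0.52. The difference was 1.63 (SE 0.472, adjusted p = 0.108 in limma), with 1.31 and 1.94 within the number groups, and was 0.86 with the rod and microglia scores as covariates. Slc4a3, an anion exchanger gene, differed by −0.34 (SE 0.109).

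Blood cells that carry CD11b were looked for next. In the blood monocyte list 3 of 11 genes were higher (27.3%, against 3.74% of all features) and 1 lower, and the median of 0.56 was above 0 in 25 of 25 alternatives (0.28 to 0.98). S100a4, a calcium-binding protein of monocytes and other motile cells, stood at 6.91, 5.22, 7.73 and 8.67 at 3 months and at 8.91, 9.47, 7.94 and 9.86 at 24 months (difference 1.91, SE 0.596). Plac8, a gene of inflammatory monocytes, stood at 6.56, 6.24, 8.71 and 8.48 and at 8.61, 9.30, 8.38 and 10.05 (difference 1.59, SE 0.679). Ccr2, the chemokine receptor gene of inflammatory monocytes, was chosen after its values were seen. It averaged 7.36 ± 0.88 and 8.42 ± 1.91 (SD, n = 4, difference 1.06, SE 0.755). The ages overlapped in S100a4, Plac8 and Ccr2. On 3-month replicate 2 S100a4 lay below the average of the dim features (5.91 on that array), so its difference gives no ratio of transcript amounts. For S100a4 and Plac8 the differences were 3.13 and 2.55 within the array numbers 1 to 8 and 0.70 and 0.62 within 9 to 16. The list's median deviation ran from −0.34 to 0.14 at 3 months and from −0.21 to 0.66 at 24 months. The part of such cells in the other differences was not tested.

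Lists of other blood cells had medians at or below that of all features, apart from border macrophages at −0.14. Medians were −0.29 over 14 neutrophil genes (0 higher and 6 lower at an unadjusted p under 0.05, 9 of the 14 among the 5585 dimmest features), −0.24 over 12 T cell genes (0 and 4, 7 dim), −0.27 over 7 B cell genes (0 and 3, 3 dim), −0.23 over 7 natural killer cell genes (0 and 2, 5 dim) and −0.31 over 9 dendritic cell genes (0 and 4, 6 dim). For 9 border macrophage genes 0 were counted in either direction, and for 5 red blood cell genes the median was −0.23 with 0 and 4. Endothelial genes had a median of 0.32 (−0.02 without 24-month replicate 1, −0.04 without 3-month replicate 4 and −0.40 with the rod score in the model) with 2 of 15 higher and 5 lower, among them the vascular growth factor receptor gene Flt1 (2.10, SE 0.915, and 0.79 without 3-month replicates 3 and 4) and Plvap, a gene of fenestrated vessels (−0.50, SE 0.116). Pericyte and smooth muscle genes stood at a median of −0.13 with 0 of 16 higher and 5 lower, retinal pigment epithelium genes at 0.19 with 0 of 14 and 3 (−0.11 without 24-month replicate 1), oligodendrocyte genes at −0.27 with 0 of 11 and 4, and lens crystallin genes at −0.21 with 1 of 9 and 4. The brightest member of each of the 20 cell type lists was looked at as well. Beside Gnat1, Guca1a, S100a4 and Flt1, the other 16 differed by −0.76 (Csf3r, a neutrophil receptor gene) to 2.90 (Rgs5, a pericyte gene), with 9 higher and 3 at an unadjusted p under 0.05.

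The 2 number groups were set against each other, since 3-month replicates 3 and 4 both fall in 9 to 16. In limma 0 of 16755 features differed between the groups in their 24-month difference at an adjusted p under 0.05 (0%), with a smallest adjusted p of 0.214 and 731 features (4.36%) at an unadjusted p under 0.05. Among the genes above, Tnf, Myd88, Cd36 and Neu2 had nearly equal differences in both groups, with −0.63 and −0.57 for Neu2, while Vtn (0.11 and 2.35), Gnat1 (0.50 and 3.49), Prdx1 (1.41 and 0.10) and S100a4 differed by more than 1.

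The 24-month arrays were compared with the intermediate ages to place the differences in time. All 12-month arrays have array numbers within 1 to 8 and all 18-month arrays within 9 to 16. At these ages, age and number group cannot be told apart. On 18-month replicates 1 and 2 the microglia scores were −1.51 and −1.205 and the rod scores 1.00 and 1.24. Against 18 months 0 features passed in limma (0%), with 432 (2.58%) at an unadjusted p under 0.05 and a smallest adjusted p of 0.979. Against 12 months 0 passed (0%), with 2749 (16.4%) at an unadjusted p under 0.05 and a smallest adjusted p of 0.211. Cxcl13 averaged 7.07 ± 0.34, 7.76 ± 1.52, 8.66 ± 1.49 and 11.04 ± 1.20 at 3, 12, 18 and 24 months (SD, n = 4). It was high, at 9.96, on 1 of the 4 12-month arrays and at 9.98 and 9.67 on 2 of the 4 18-month arrays. The differences of Cxcl13 at 24 months were 2.39 (SE 0.808) from 18 months and 3.28 (SE 0.808) from 12 months. Spa17 took another course, at 5.62 ± 0.11, 6.54 ± 0.98, 9.65 ± 0.26 and 8.80 ± 1.12, with a difference of −0.85 (SE 0.499) from 18 months. Cfb stood at 6.67 ± 0.05, 6.91 ± 0.22, 6.75 ± 0.10 and 7.51 ± 0.75, and Tnf at 8.17 ± 0.58, 7.72 ± 1.03, 6.97 ± 0.73 and 6.62 ± 0.26.

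The smallest p against 18 months on the higher side belonged to Ch25h, the cholesterol 25-hydroxylase gene of activated macrophages (1.28, SE 0.312), Tmem106a, a transmembrane gene of macrophages (1.17, SE 0.331), and Plac8 (2.44, SE 0.679). Ch25h stood at 5.19, 5.35, 5.40 and 5.15 on the 18-month arrays and at 7.09, 6.27, 7.04 and 5.82 on the 24-month arrays. The 18-month levels lay below the average of the dim features (5.52 to 5.68), so the difference gives no ratio of transcript amounts. Its 24-month arrays all lay above, while 1 of the 3-month arrays, at 6.67, reached the same range. On the lower side were Efna5, an ephrin gene (−1.24, SE 0.229), Slc9a7, an ion exchanger gene of the trans-Golgi network (−1.07, SE 0.218), and the zinc finger gene Zfp27 (−0.86, SE 0.165), each with an adjusted p of 0.979 in limma. Efna5 passed without 24-month replicate 1 (−1.46, adjusted p = 0.0357 in limma, against 0.979 with all arrays). Against 12 months Rabgap1, a GTPase-activating protein of Rab proteins (1.12, SE 0.216), Ddx60, an interferon-induced helicase gene (0.75, SE 0.152), and Ube2v2, a ubiquitin-conjugating enzyme variant gene (2.29, SE 0.502), led the higher side. Tctex1d4, a dynein light chain gene (−0.81, SE 0.124), Trim45 (−0.48, SE 0.0890) and the mitochondrial carrier gene Slc25a2 (−0.64, SE 0.122) led the lower side.

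**Figure D5:**
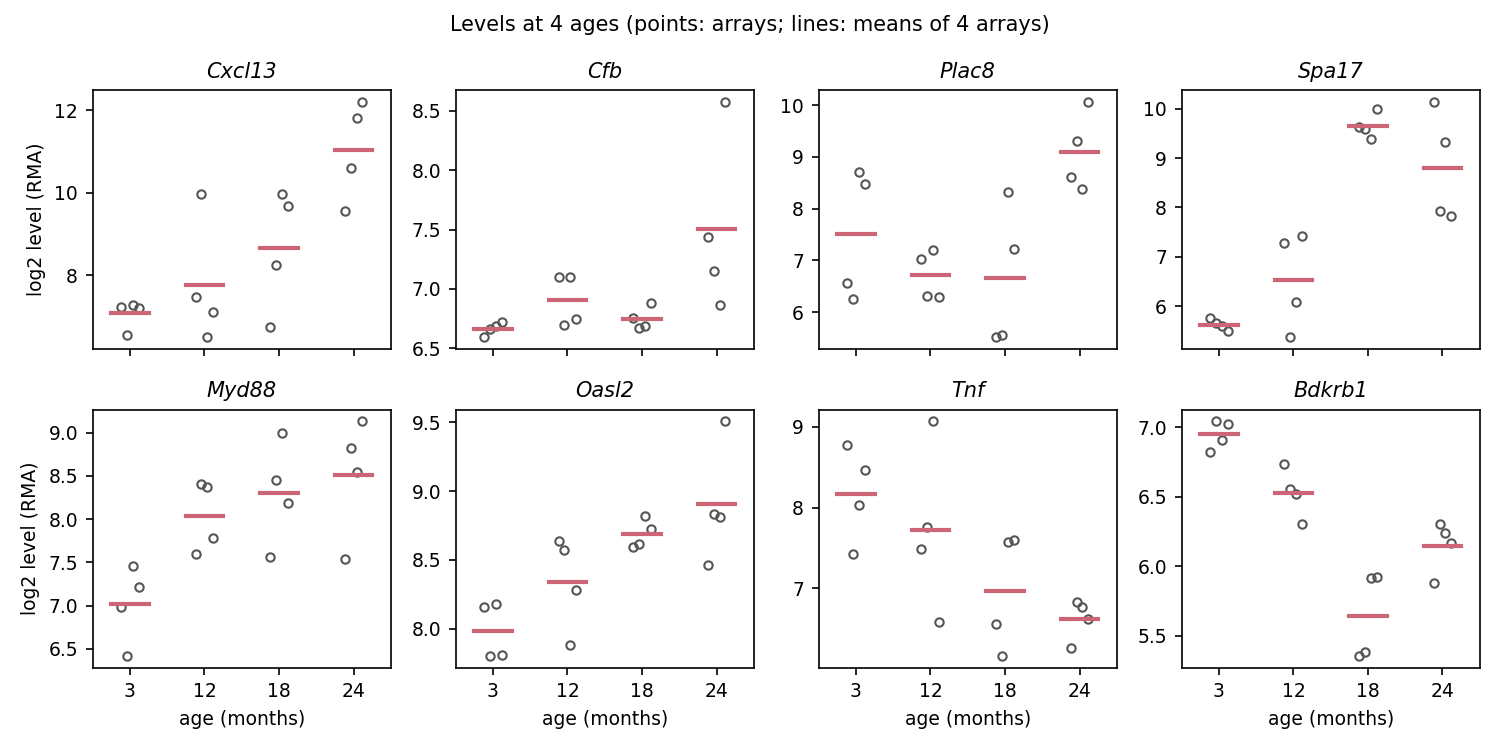
Log2 levels of 8 genes at 3, 12, 18 and 24 months, with 1 point per array (n = 4 at each age) and red lines at the means. Cxcl13 and Cfb are highest at 24 months, at means of 11.04 and 7.51, Spa17 is highest at 18 months at 9.65, and Tnf has its lowest mean, 6.62, at 24 months.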

How the data were processed

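RNA of CD11b-sorted retinal microglia was hybridised to Affymetrix Mouse Exon 1.0 ST arrays. The deposited table holds 1 log2 value per feature and array, made by the authors with RMA per the submitters' processing notes, with the version and annotation build not given in the sources used here. Precision is limited by the number of arrays. Of 16755 features 14996 carry 1 gene symbol, 1019 several and 740 none, and 14941 were matched by Entrez ID to the GRCm38.p6 gene table. limma 3.58.1 in R 4.3.3 (lmFit, eBayes) fitted 1 mean per age over all 16 arrays, and p-values were adjusted by Benjamini-Hochberg over all features with a threshold of 0.05. The code was tested on simulated data. Alternatives changed the filter on dim features, the normalization, the variance model, the array weights, the arrays in the fit, blocks for replicate or array number, and the rod and microglia scores as covariates.

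Members and lists were chosen with earlier results of these data known. A list uses the feature with the highest mean per gene. Named were the 12 smallest p in each direction, up to 2 smallest p per list, the brightest member of each cell type list, the 7 identity genes, complement genes that differed by over 0.5, and the 3 smallest p per direction against 18 and 12 months. The C1q genes and Ccr2 were chosen after their values were seen. Equal replicate numbers did not pair the arrays.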

Additional observations from a re-analysis of the deposited data

Results flagged for a closer look

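In 33 of 306 sets of 4 arrays 1 array stood apart from the other 3 by Dixon's ratio, for 22 of 206 gene and age pairs and 11 of 100 list and age pairs. Chance flags about 1 in 20 groups. 24-month replicate 1 was the lowest in 16 of them and 3-month replicate 2 the lowest in 7.

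On 24-month replicate 1 the low genes were Cx3cr1 (9.91), P2ry12 (8.69), Tmem119 (7.20), Csf1r (9.39), Aif1 (10.40), Itgam (7.19), Ptprc (9.10), Trem2 (7.16), C1qa (7.70) and C1qc (10.87), and Guca1a of the cone list was high at 12.87. The low lists there, by their median deviation, were homeostatic microglia (−2.08), disease-associated microglia (−0.61), MHC class I (−0.43), phagocytosis (−0.85), lysosome (−0.75) and motility (−0.71).

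On 3-month replicate 2 Cxcl13 (6.56), Cx3cr1 (12.05), Aif1 (11.61), Ptprc (10.28), MHC class II (−0.45), phagocytosis (−0.31) and autophagy (−0.19) were low, while Serping1 (8.65), Otx2 of the bipolar list (9.62) and the red blood cell list (0.26) were high. Single values elsewhere were Npas2 at 6.65 on 3-month replicate 3, Armcx3 at 8.70 and Itgal at 6.76 on 3-month replicate 4, Psmc2 at 10.09 and Sdha at 10.63 on 24-month replicate 3, and the cell cycle list at 0.19 on 24-month replicate 4.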

How the results depend on the processing

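At 24 against 3 months 0 features passed in limma with all arrays, and leaving out 1 array at a time gave 0 to 2. Without 3-month replicate 1 the 1 feature was Tas2r106 (−1.34), and without 3-month replicate 2 the 2 were Map2k3os (−1.34) and Prelp (3.08). Array weights gave 2087 (291 higher, 1796 lower), leaving out 3-month replicates 3 and 4 gave 5, the array numbers 9 to 16 alone gave 5 (Rgs5, Gpm6a and Sag among them), the microglia score as a covariate gave 2 (Cxcl13 and Myd88) and both scores gave 1 (Bag2). Against 18 months 0 to 3 passed over the arrays left out in turn, with 3 without 24-month replicate 1, and against 12 months 0 in each alternative. The difference between number groups had 1 feature with only the 8 arrays of these ages. The cause of these counts was not tested. The largest array weights, 4.548 and 3.125, fell on 18-month replicates 1 and 2. Features at an unadjusted p under 0.05 numbered 4626 with all arrays, 5998 with array weights, 2474 after quantile normalization, 2549 after median centring, 2309 without the 5585 dimmest features and 2165 without 24-month replicate 1 and 3-month replicates 3 and 4. The lower share among them was 86.5%, 83.9%, 73.1%, 60%, 74% and 76.1%, and the median difference of all features was −0.06 after quantile normalization and −0.04 after median centring.

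Equal replicate numbers did not deviate together (r = 0.048, −0.15, 0.253 and 0.14 for replicates 1 to 4), and the replicate block gave 0 features over all ages (smallest adjusted p in limma 0.165) and 0 over the 8 arrays (0.206).

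The medians of 17 of the 50 lists kept their sign in every alternative and those of 33 did not. Without 24-month replicate 1 the sign turned for 14 lists, without 3-month replicates 3 and 4 for 10, without all 3 arrays for 22, and with the rod score as a covariate for 21. Among functions, medians above 0 were found in 7 of 25 alternatives for Toll-like receptors (up to 0.36), 7 for chemokines (up to 0.30), 7 for phagocytosis, 6 for lysosome, 8 for MHC class I and 24 for interferon response. Named genes with a sign change are given next, and the cause was not tested. Without 24-month replicate 1, and equally with the 3 arrays lowest in microglia genes left out (an alternative chosen after seeing the data), the differences were −0.051 for Serping1, 0.11 for Cx3cr1, 0.0189 for Tmem119, 0.0715 for Csf1r, 0.0796 for Aif1, 0.16 for Itgam, 0.0713 for Ptprc and 0.60 for C1qa. Over all arrays left out in turn the ranges were −0.051 to 1.07 for Serping1, −0.84 to 0.11 for Cx3cr1, −1.05 to 0.0189 for Tmem119, −0.87 to 0.0715 for Csf1r, −0.65 to 0.0796 for Aif1, −1.05 to 0.16 for Itgam, −0.86 to 0.0713 for Ptprc and −0.52 to 0.60 for C1qa. Without 3-month replicates 3 and 4 they were −0.27 for Vtn, 0.0338 for Itgam and 0.12 for C1qa. Without all 3 of these arrays they were −0.55 for Vtn, −0.47 for Serping1, −0.22 for Guca1a, 0.27 for Cx3cr1, 0.12 for P2ry12, 0.34 for Tmem119, 0.25 for Csf1r, 0.32 for Aif1, 0.77 for Itgam, 0.45 for Ptprc, 0.92 for C1qa and 0.0747 for C1qb. With the rod score as a covariate they were −0.46 for Vtn, −0.37 for Serping1, 0.19 for Cx3cr1, 0.0212 for P2ry12, 0.30 for Tmem119, 0.16 for Csf1r, 0.32 for Aif1, 0.73 for Itgam, 0.51 for Ptprc, 0.91 for C1qa and 0.11 for C1qb. With the microglia score they were 0.0474 for Cx3cr1, 0.0238 for Tmem119, 0.0271 for Csf1r, 0.0945 for Aif1, 0.19 for Itgam, 0.14 for Ptprc and 0.62 for C1qa. With both scores they were −0.44 for Vtn, −0.22 for Serping1, 0.0249 for Tmem119, 0.14 for Aif1, 0.49 for Itgam, 0.30 for Ptprc and 0.61 for C1qa. The microglia score was itself made from Cx3cr1, Tmem119, Csf1r, Aif1 and C1qa, among other genes. A fit with that score therefore cannot test the differences of these genes. C1qa was at 0.0748 with array weights and at 0.40 within the array numbers 9 to 16.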
